A study of Mus musculus with 15 samples.

Results

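Genes of the interferon response and of antigen presentation were followed in mouse quadriceps, the large muscle group at the front of the thigh, after exercise and after overexpression of the coactivator PGC1α. The 38 members were a list of interferon-induced genes, MHC class I genes and MHC class II genes, matched by gene name. The list was drawn up with earlier results of these data known. All 38 members had a row among the 12529 genes of the deposited expression table. RNA-seq had been performed on 3 groups of C57BL/6 mice, with 5 libraries in each group. Controls were of the wild type genotype and sedentary. Exercised mice (Ex) were wild type and had run voluntarily on a wheel for weeks before harvest, which came hours after the last bout. Transgenic mice (mTg, genotype PGC1a Tg(+)) were sedentary and carried a transgene for *Ppargc1a*, the gene of PGC1α, driven by the promoter of the muscle creatine kinase gene, which is active in muscle fibers, whereas the RNA came from whole tissue with its vessels, connective tissue and immune cells. The methods name wild-type littermates of the transgenic mice and purchased mice for the wheel study, but not which of them gave the control libraries shared by both comparisons, nor whether each library came from its own animal, so that p-values measure only the spread between these libraries. Because tissue RNA was measured in bulk, more cells of a type and more RNA per cell cannot be told apart.

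Values are FPKM, fragment counts divided by transcript length and by a scale for each library, and they therefore allow levels to be compared between genes. Between 11476001 and 16917677 reads per library fell on these genes, with 15686763 to 16917677 in controls, 14098327 to 16876965 in Ex and 11476001 to 15381319 in mTg. *Ppargc1a* measured 50.1 to 56.8 FPKM in mTg against 5.06 to 12.5 in controls and 4.87 to 7.34 in Ex, as the labels state. Transcripts of muscle fibers dominated every library: the summed level of 8 fiber genes, such as *Ckm* and *Acta1*, was between 86016 and 136158 FPKM. Fold changes refer to log2(FPKM + 1), so that changes of weakly expressed genes appear smaller than they are. They are given with standard errors and with Benjamini-Hochberg adjusted p-values from limma over all 11674 genes that reached a mean of 0.5 FPKM, and a gene was called changed when this adjusted p was under 0.05. Levels are given with the SD over 5 libraries.

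Interferons are cytokines that cells release when they sense viral nucleic acid or are activated by immune signals. Type I interferons and interferon-γ bind separate receptors, and Janus kinases attached to these receptors activate the STAT factors, which enter the nucleus with IRF proteins and switch on a shared set of genes. The products of these genes sense RNA, block viral replication, attack the vacuoles of intracellular microbes and raise antigen presentation. MHC class I molecules, a heavy chain paired with β2-microglobulin, show peptides from inside the cell on nearly all cell types and are low on healthy muscle fibers. MHC class II molecules show peptides from outside the cell and are carried mainly by macrophages, dendritic cells and B cells.

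Most members were higher in mTg muscle, in every role group. Of the 37 members tested, 29 were higher in mTg than in controls and 0 were lower, where 22.3% and 23.1% of all tested genes were called higher and lower. Because the members were chosen with earlier results of these data known, such counts are descriptions. No member was lower at an unadjusted p under 0.05 in limma either (0 members), and limma voom on recovered reads also called 0 lower. The median log2 fold change of the members was 0.45, against -0.021 over all tested genes. The increases were moderate, with fold changes of up to 0.85 on the log2(FPKM + 1) scale. For 15 members every mTg library lay above every control, a separation seen for 16.3% of all tested genes. In Ex muscle, by contrast, 2 members were called higher (*Rsad2* and *Tap2*) and 1 lower (*Cd74*), where 5.39% and 5.02% of all tested genes were called in these directions. The members' median log2 fold change in Ex was 0.13 against -0.0056 over all genes, and 30 of the 37 had a positive value, most of them too small to pass the test. Both comparisons use the same controls, so Ex and mTg were also compared directly. In that comparison 18 members were lower in Ex than in mTg, where 20.7% of all genes were, and 0 were higher, where 20.7% of all genes were. At an unadjusted p under 0.05 limma placed 2 members higher and 24 lower in Ex, and limma voom called 0 higher.

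**Figure D1:**
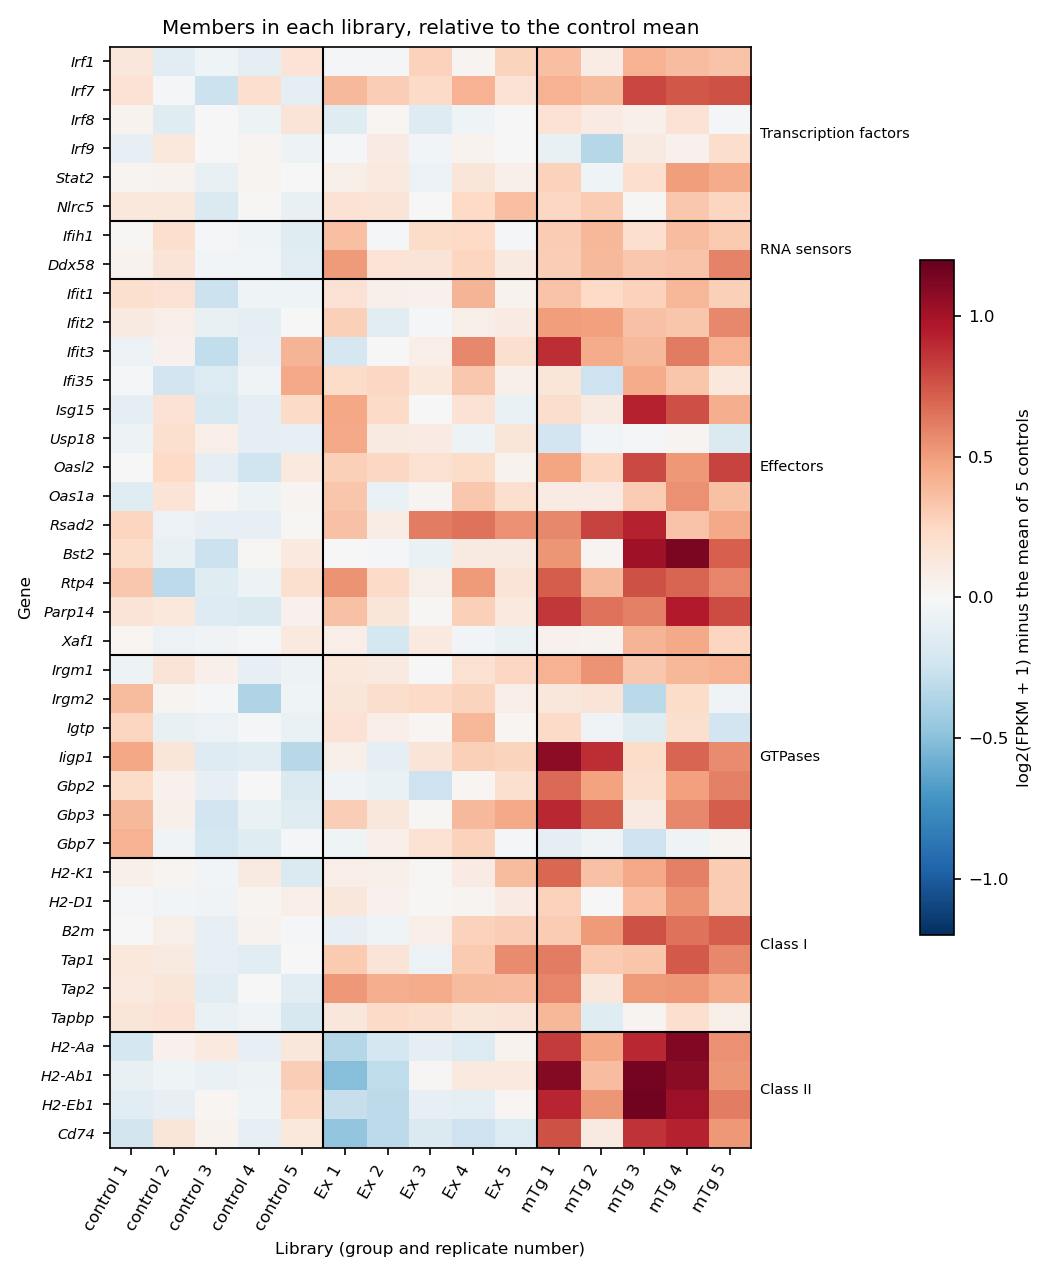
Heat map of all 38 members (rows, grouped by role) in the 15 libraries (columns), colored by log2(FPKM + 1) minus the mean of the 5 controls. The mTg columns are mostly red, with 21 to 32 members per library above all controls, class II genes are palest in mTg replicate 2, and in Ex *Cd74* is pale blue in every library (31.8 to 39.6 FPKM against a control mean of 44.8) while *Tap2* is red throughout.

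The libraries of a group were not uniform. The number of members above every control was 29, 21, 24, 32 and 31 in mTg replicates 1 to 5, and 16, 8, 8, 17 and 12 in Ex replicates 1 to 5. The mTg replicate 2 library was the weakest of its group, holding the lowest mTg value for 19 of the 38 members, and its median deviation from the control mean was 0.30 on the log2 scale against 0.36 to 0.50 in the other mTg libraries. Without that library 28 members were still called higher in mTg.

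Markers of other cell types were measured beside the members, because whole muscle holds endothelium and immune cells that express MHC genes. Endothelial markers were higher in mTg for 10 of 12 genes, among them *Tie1* (log2 fold change 0.80 ± 0.09, adjusted p = 1.51e-05), *Emcn* (0.85 ± 0.10) and *Pecam1* (0.64 ± 0.08), and their summed level was 172 to 213 FPKM in controls, 227 to 268 in Ex and 263 to 351 in mTg. They were also higher in Ex for 4 of 12 genes, including *Pecam1* at 0.24. Of 12 tested macrophage markers, 4 were higher in mTg (*Cd68* 0.56, *Cd14* 0.48, *Lyz2* 0.40 and *Mrc1* 0.28) and 0 were called in Ex, where 0 also had an unadjusted p under 0.05 in limma. Among the uncalled markers, *Adgre1*, *Csf1r* and *Itgam* had log2 differences of 0.21 ± 0.11, 0.02 ± 0.14 and 0.20 ± 0.12 in mTg. These did not pass the test (adjusted p = 0.138, 0.929 and 0.165). Of the 12 tested macrophage markers, 11 had a positive value in mTg. By quantitative PCR, the paper reported higher *Adgre1*, *Itgam* and *Pecam1* in mTg quadriceps, and it cited earlier reports of more resident macrophages and vessels there. For Ex, the paper read its quantitative PCR of immune and vascular markers as no change in cellular composition. The 4 endothelial genes called higher in Ex here differ from that reading. The summed macrophage marker level was 92.9 to 134 FPKM in controls, 94.9 to 162 in Ex and 116 to 195 in mTg, so that the groups overlapped. Dendritic cell markers summed to between 1.98 and 3.89 FPKM in every library for 4 of 8 genes with a row, and *Zbtb46* and *Cd209a* had log2 differences of -0.10 and -0.11 in mTg that did not pass the test. All 12 markers of T and NK cells and all 6 of B cells had no row in the table, and neutrophil markers had a row for 2 of 7 and summed to at most 2.08 FPKM. The listed muscle fiber genes moved the other way, with 8 of 8 lower in mTg and 6 of 8 lower in Ex. Not called in Ex were *Acta1* (0.997 times the control mean) and *Mylpf* (0.869 times). The list includes *Myh4*, the myosin of glycolytic type IIb fibers, and the paper reported fewer such fibers in gastrocnemius of both models. It also includes *Pvalb*, where the paper showed a super-enhancer particular to glycolytic muscle. Neither *Myh2* nor *Myh7*, the myosins of more oxidative fibers, is in the list, so it does not stand for all fibers. Whether these genes followed fiber content or fiber type was not tested. The part of these cell types in the member results below was not tested.

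**Figure D2:**
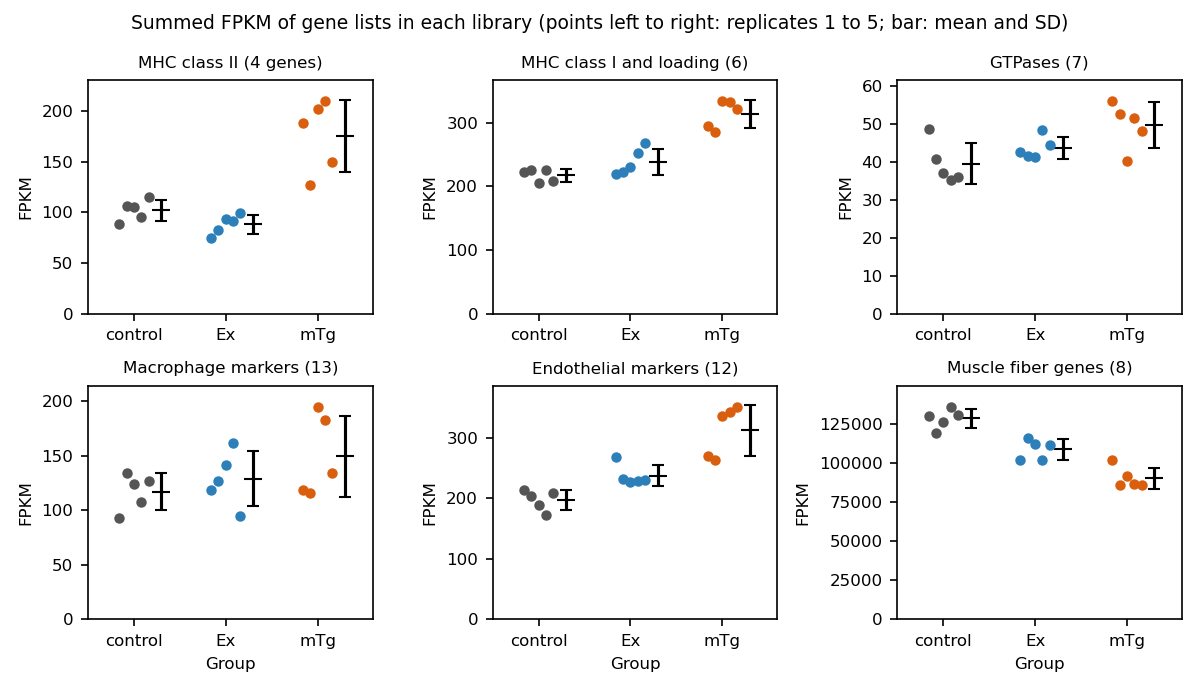
Summed FPKM of 3 member groups (top) and 3 marker lists (bottom) in each library, with points for libraries and a bar for the mean and SD of 5 libraries. Class II sums were 127 to 210 in mTg against 88.9 to 115 in controls and 75.1 to 99 in Ex, macrophage sums overlapped between the groups, and in mTg all endothelial sums were above and all fiber sums below those of the controls.

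Before the values, the promoter sequences that the group is known for are shown. Many interferon-induced genes carry an interferon-stimulated response element (ISRE), bound by IRF proteins alone or with STAT partners, close to their start site. The letters GAAA, any 2 bases (NN) and GAAA again, which approximate it, were searched on both strands, where the reverse reads TTTC, NN and TTTC, in RefSeq promoter windows (GRCm38.p6, the same coordinates as mm10) of 300 bases, from 250 before to 50 after each start. Of 38 members, 30 had a window, and 16 of these 30 (53.3%) held the letters, against 3.99% of all 27025 genes with a window and 3.44% of all 32851 windows. Stretches of 44 bases from 11 of the 16 are printed in the direction of transcription, with capitals for the matching letters. Those of *Isg15*, *Ifit1*, *Ifit3*, *Rsad2*, *Bst2*, *Irgm1*, *Gbp2* and *B2m* come from genes that were higher in mTg:
Isg15, chr4:156200864-156200907, minus strand: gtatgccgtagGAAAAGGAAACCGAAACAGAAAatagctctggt
Ifit1, chr19:34640777-34640820, plus strand: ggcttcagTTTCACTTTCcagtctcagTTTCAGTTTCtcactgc
Ifit3, chr19:34583356-34583399, plus strand: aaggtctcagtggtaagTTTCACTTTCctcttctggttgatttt
Rsad2, chr12:26456546-26456589, minus strand: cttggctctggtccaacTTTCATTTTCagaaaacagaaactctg
Bst2, chr8:71537573-71537616, minus strand: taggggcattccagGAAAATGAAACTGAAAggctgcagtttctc
Irgm1, chr11:48871421-48871464, minus strand: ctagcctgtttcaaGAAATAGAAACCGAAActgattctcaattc
Gbp2, chr3:142620587-142620630, plus strand: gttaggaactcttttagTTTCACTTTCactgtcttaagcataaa
B2m, chr2:122147531-122147574, plus strand: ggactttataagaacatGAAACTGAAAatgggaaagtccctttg

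*Isg15* shows 3 overlapping matches, and *Bst2* and *Irgm1* show 2 overlapping matches each. The remaining 3 stretches come from GTPase genes that hold the same letters and did not pass the test in mTg:
Igtp, chr11:58199505-58199548, plus strand: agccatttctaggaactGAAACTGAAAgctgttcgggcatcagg
Irgm2, chr11:58214896-58214939, plus strand: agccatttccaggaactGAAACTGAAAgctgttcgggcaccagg
Gbp7, chr3:142530266-142530309, plus strand: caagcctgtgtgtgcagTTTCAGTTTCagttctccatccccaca

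The neighbors *Igtp* and *Irgm2* share nearly the whole stretch. Of the 16 members with these letters 12 were higher in mTg (3 did not pass and 1 was not tested), and of the 14 without them 10 were. The interferon-γ activated site (GAS), searched as TTCNNNGAA, which reads the same on both strands, was present in 9 of 30 members (30%) against 9.55% of all genes. In *Bst2* it overlapped the ISRE letters. Members with the GAS letters were *Irf1*, *Irf8*, *Ifit2*, *Ifi35*, *Oas1a*, *Bst2*, *Irgm2*, *Igtp* and *Gbp7*, and 3 of these 9 were higher in mTg (5 did not pass and 1 was not tested), whereas of the 21 without them 19 were. MHC promoters carry a conserved module that includes a Y box, the site of factor NF-Y. Its letters CTGATTGG (or CCAATCAG) were found in 6 of 30 members (20%) against 4.70% of all genes, namely *H2-K1*, *H2-D1*, *Tap1*, *H2-Aa*, *H2-Eb1* and *Irf8*. Of these 6 members 5 were higher in mTg, and of the 24 without the Y box 17 were. These splits by promoter letters are descriptions and were not tested. Both class II genes with a window held them, shown here with *H2-D1* from class I:
H2-D1, chr17:35263023-35263066, plus strand: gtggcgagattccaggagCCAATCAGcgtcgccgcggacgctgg
H2-Aa, chr17:34287849-34287892, minus strand: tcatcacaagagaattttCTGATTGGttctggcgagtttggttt
H2-Eb1, chr17:34305787-34305830, plus strand: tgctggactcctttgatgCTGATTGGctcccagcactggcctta

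These matches describe letters in a window and were not tested as binding sites.

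Transcription factors of the pathway rose modestly in mTg: 4 of 6 were higher, and 0 of 6 were called in Ex, where 2 had a higher value at an unadjusted p under 0.05 in limma. *Irf7*, which amplifies type I interferon production, measured 2.90, 2.44, 1.90, 2.99 and 2.21 FPKM in control replicates 1 to 5, 3.54, 3.25, 3.05, 3.63 and 2.90 in Ex, and 3.63, 3.51, 5.04, 4.79 and 4.89 in mTg. All mTg libraries lay above all controls, and Ex lay between them with overlap on both sides. Its log2 fold change was 0.62 ± 0.11 in mTg (adjusted p = 0.00055) and 0.30 ± 0.09 in Ex (adjusted p = 0.0553), and it was lower in Ex than in mTg (-0.32 ± 0.10, adjusted p = 0.0161). This last difference missed the threshold when libraries were rescaled to the same sum (adjusted p = 0.0579).

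*Irf1*, a factor induced strongly by interferon-γ and the most abundant member of this group, measured 4.51, 3.56, 3.84, 3.61 and 4.6 FPKM in controls, 3.91, 3.95, 5.08, 4.12 and 5.01 in Ex, and 5.44, 4.34, 5.69, 5.46 and 5.36 in mTg. Only mTg replicate 2 overlapped the controls. Its log2 fold change in mTg was 0.32 ± 0.09 (adjusted p = 0.00857). *Stat2*, the STAT of the type I interferon complex, measured 3.32, 3.35, 2.98, 3.32 and 3.21 FPKM in controls, 3.44, 3.60, 3.03, 3.68 and 3.41 in Ex, and 4.14, 3.09, 3.87, 4.98 and 4.78 in mTg. Again mTg replicate 2 was at the level of the controls while the other 4 were above them (0.28 ± 0.10, adjusted p = 0.0315). *Nlrc5*, the transactivator of MHC class I genes, was weakly expressed, at 0.602, 0.608, 0.302, 0.483 and 0.380 FPKM in controls, 0.658, 0.637, 0.466, 0.731 and 0.886 in Ex, and 0.751, 0.813, 0.488, 0.844 and 0.762 in mTg. It rested on 32 to 106 reads per library, its groups overlapped through mTg replicate 3, and its log2 fold change in mTg was 0.23 ± 0.08 (adjusted p = 0.0361). The calls of *Stat2* and *Nlrc5* were fragile. *Stat2* lost its call without control replicate 3, 4 or 5 or mTg replicate 1, 4 or 5 (adjusted p 0.0505 to 0.0806), and *Nlrc5* without control replicate 3, 4 or 5 or mTg replicate 1, 2, 4 or 5 (0.0601 to 0.0933). *Irf9*, the DNA-binding partner of STAT2, had a log2 difference of -0.01 in mTg with a 95% interval of -0.22 to 0.20, and *Irf8*, a factor of myeloid cells, one of 0.10 with an interval of -0.06 to 0.25.

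Both cytosolic RNA sensors were higher in mTg. *Ddx58*, which encodes RIG-I, measured 1.71, 1.93, 1.58, 1.58 and 1.40 FPKM in controls, 2.75, 1.95, 1.94, 2.14 and 1.83 in Ex, and 2.23, 2.45, 2.29, 2.35 and 2.98 in mTg, where every library exceeded every control. Its log2 fold change was 0.39 ± 0.08 in mTg (adjusted p = 0.00124) and 0.24 ± 0.08 in Ex (adjusted p = 0.092). *Ifih1*, which encodes MDA5, measured 1.40, 1.73, 1.36, 1.29 and 1.15 FPKM in controls, 2.06, 1.36, 1.77, 1.81 and 1.36 in Ex, and 1.93, 2.13, 1.73, 2.08 and 1.95 in mTg. The lowest mTg library equaled the highest control to 3 digits, and the log2 fold change in mTg was 0.31 ± 0.08 (adjusted p = 0.00419). The difference between Ex and mTg did not pass the test for either sensor, with 95% intervals of -0.34 to 0.04 for *Ddx58* and -0.34 to 0.03 for *Ifih1*.

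Among the antiviral effectors, 10 of 12 tested genes were higher in mTg and 1 in Ex, and 7 were lower in Ex than in mTg. *Parp14*, an interferon-induced ADP-ribosyltransferase, had the smallest p of the group. It measured 2.55, 2.47, 1.85, 1.82 and 2.29 FPKM in controls, 3.07, 2.51, 2.22, 2.87 and 2.46 in Ex, and 4.71, 4.0, 3.85, 5.17 and 4.46 in mTg. The mTg libraries stood apart from both other groups, at 2.02 times the control mean, with a log2 fold change of 0.77 ± 0.09 (adjusted p = 1.73e-05) and an Ex minus mTg difference of -0.58 ± 0.09 (adjusted p = 0.000113). In Ex the difference from controls was 0.19 ± 0.09 (adjusted p = 0.202).

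*Ifit2*, one of the genes whose products bind foreign RNA and restrain its translation, measured 1.40, 1.34, 1.09, 1.06 and 1.23 FPKM in controls, 1.70, 1.03, 1.18, 1.33 and 1.38 in Ex, and 2.15, 2.13, 1.84, 1.80 and 2.30 in mTg. The mTg libraries lay above all others (0.45 ± 0.07, adjusted p = 0.000229), and no difference between Ex and controls was detectable at this depth (0.06 ± 0.08, adjusted p = 0.68). *Ifit3*, its neighbor on chromosome 19, measured 1.36, 1.58, 1.02, 1.32 and 2.30 FPKM in controls, 1.16, 1.48, 1.62, 2.69 and 1.83 in Ex, and 3.58, 2.39, 2.24, 2.83 and 2.32 in mTg (log2 fold change in mTg 0.55 ± 0.13, adjusted p = 0.00365). Its near-identical copy *Ifit3b*, which is no member, went the other way, with 1.70, 2.47, 1.37, 1.86 and 1.89 FPKM in controls and 2.03, 1.27, 1.04, 0.720 and 0.903 in mTg (-0.40 ± 0.14, adjusted p = 0.034). The sources do not say how reads that match both copies were assigned, so the split between *Ifit3* and *Ifit3b* is uncertain. The difference of *Ifit3* between Ex and mTg (-0.43 ± 0.13, adjusted p = 0.0208) was lost without Ex replicate 1 or 2 or mTg replicate 1, with adjusted p-values of 0.0509 to 0.0533.

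*Rsad2*, which encodes the antiviral enzyme viperin, was the effector that also rose with exercise. It measured 1.86, 1.28, 1.23, 1.24 and 1.41 FPKM in controls, 2.06, 1.54, 2.66, 2.76 and 2.50 in Ex, and 2.58, 3.20, 3.54, 2.04 and 2.29 in mTg. All mTg libraries and 4 of 5 Ex libraries exceeded the highest control. The log2 fold change was 0.45 ± 0.11 in Ex (adjusted p = 0.0244) and 0.62 ± 0.11 in mTg (adjusted p = 0.000577), with an interval of -0.45 to 0.10 for the Ex minus mTg difference (adjusted p = 0.3). Leaving out control replicate 2, 3 or 4, or Ex replicate 3 or 4, removed the Ex call (adjusted p 0.0505 to 0.0633).

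*Rtp4*, a chaperone gene induced by type I interferon, measured 2.46, 1.22, 1.5, 1.64 and 2.15 FPKM in controls, 3.02, 2.23, 1.90, 2.92 and 2.07 in Ex, and 3.57, 2.61, 3.67, 3.47 and 3.15 in mTg, where it was higher than in every control (0.63 ± 0.12, adjusted p = 0.0007). *Oasl2*, of the oligoadenylate synthetase family, measured 1.31, 1.74, 1.15, 0.967 and 1.51 FPKM in controls, 1.83, 1.75, 1.63, 1.71 and 1.39 in Ex, and 2.22, 1.78, 3.01, 2.33 and 3.06 in mTg (0.57 ± 0.12, adjusted p = 0.00146). For both genes mTg was clear of the controls and Ex overlapped both groups. *Bst2*, which encodes tetherin, a protein that holds budding virus particles on the cell surface, was the most abundant effector. It measured 14.8, 11.7, 10.3, 12.7 and 13.7 FPKM in controls, 12.5, 12.3, 11.8, 13.6 and 13.6 in Ex, and 18.6, 12.9, 26.5, 28.6 and 21.3 in mTg. The mTg libraries ranged widely, with replicate 2 inside the control range (0.69 ± 0.17, adjusted p = 0.00551), while Ex and controls nearly coincided (0.02 ± 0.08) and the Ex minus mTg difference was -0.67 ± 0.16 (adjusted p = 0.00424).

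Of the other effectors, *Isg15*, the ubiquitin-like modifier, *Ifit1* and *Xaf1* were higher in mTg with log2 fold changes of 0.49, 0.31 and 0.24. *Isg15* rested on 19 to 49 reads per library, and the call of *Xaf1* was lost without control replicate 1, 2, 3 or 4 or mTg replicate 3, 4 or 5 (adjusted p 0.051 to 0.102). *Usp18*, which removes ISG15 from proteins and dampens interferon signaling, did not follow the group. It measured 1.57 to 2.17 FPKM in controls and 1.36 to 1.83 in mTg, with a difference of -0.09 and an interval of -0.26 to 0.09. *Ifi35* measured 9.81 to 16.4 FPKM in controls and 9.70 to 16.3 in mTg, with an interval of -0.15 to 0.47. *Oas1a* was too low to be tested, at 0.201 to 0.493 FPKM in controls, 0.260 to 0.677 in Ex and 0.425 to 0.950 in mTg, on 6 to 26 reads per library.

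The interferon-inducible GTPases, some of which attack the vacuoles of intracellular microbes, divided into 4 genes that were higher in mTg and 3 that did not pass the test. All 6 with a promoter window hold the ISRE letters. *Irgm1*, the most abundant, measured 8.54, 10.1, 9.40, 8.29 and 8.57 FPKM in controls, 9.90, 9.74, 8.92, 10.3 and 10.8 in Ex, and 12.3, 13.5, 11.5, 12.1 and 12.3 in mTg. The mTg libraries were above all others, with a log2 fold change of 0.42 ± 0.07 (adjusted p = 0.000295) and an Ex minus mTg difference of -0.29 ± 0.07 (adjusted p = 0.00412). *Gbp2*, a guanylate-binding protein gene, measured 5.11, 4.42, 3.89, 4.26 and 3.63 FPKM in controls, 4.09, 3.95, 3.40, 4.33 and 4.99 in Ex, and 7.41, 6.30, 4.99, 6.35 and 6.97 in mTg. Only mTg replicate 3 reached into the control range (0.49 ± 0.10, adjusted p = 0.00136), and Ex was lower than mTg (-0.52 ± 0.10, adjusted p = 0.000958).

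*Gbp3*, in the same cluster on chromosome 3, measured 2.96, 2.17, 1.59, 1.87 and 1.74 FPKM in controls, 2.73, 2.32, 2.07, 2.97 and 3.16 in Ex, and 4.66, 4.02, 2.26, 3.53 and 4.0 in mTg (0.61 ± 0.15, adjusted p = 0.00426). *Iigp1*, an immunity-related GTPase gene on chromosome 18, measured 6.19, 4.77, 3.67, 3.76 and 3.13 FPKM in controls, 4.47, 3.80, 4.78, 5.35 and 5.26 in Ex, and 9.94, 8.62, 5.06, 7.45 and 6.70 in mTg (0.69 ± 0.17, adjusted p = 0.00437). In both, mTg replicate 3 was the lowest of its group and fell within the control range. The genes that did not pass were *Irgm2*, *Igtp* and *Gbp7*, with levels in mTg of 5.81 to 8.88, 6.70 to 9.59 and 3.41 to 4.35 FPKM. Their mTg differences were 0.03, 0.00 and -0.08, with intervals of -0.26 to 0.31, -0.22 to 0.22 and -0.32 to 0.15. *Gbp7* lies between 142530336 and 142550151 on chromosome 3, and *Gbp3* between 142560016 and 142573213, so that nearby genes fell on different sides of the threshold, although the difference between them was not tested. These families contain close copies whose reads may be shared.

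**Figure D3:**
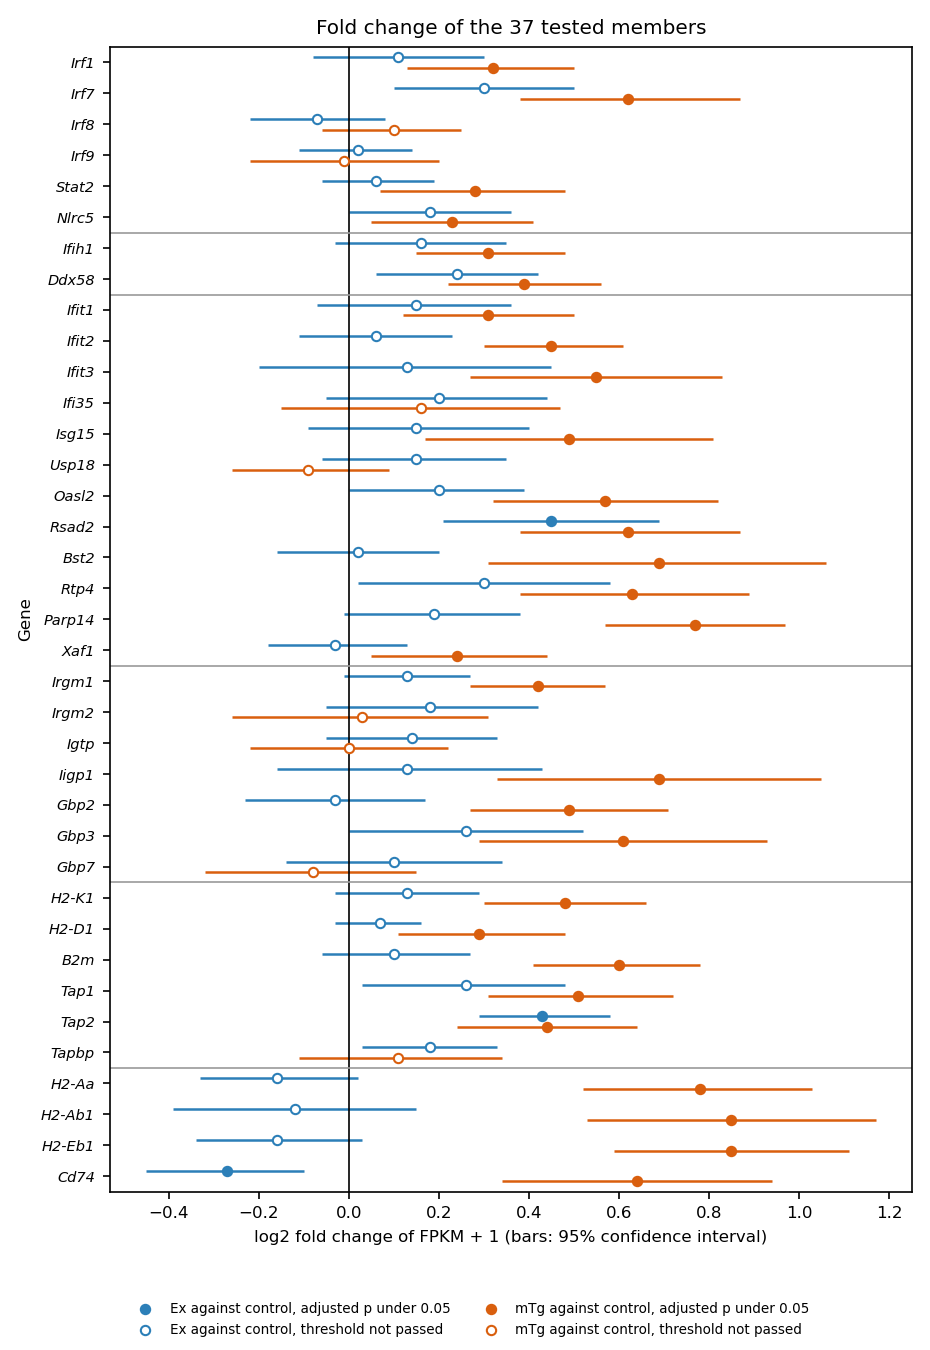
Log2 fold changes of FPKM + 1 for the 37 tested members in Ex (blue) and mTg (orange) against controls, with 95% confidence intervals, where filled points passed an adjusted p of 0.05. In mTg 29 points are filled and all of them lie to the right of 0, whereas in Ex only *Rsad2*, *Tap2* and *Cd74* are filled, the last to the left.

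Genes of MHC class I presentation had the highest summed level of the role groups, mostly from *B2m* and *H2-K1*. It was 205 to 226 FPKM in controls, 220 to 268 in Ex and 285 to 334 in mTg. Of 6 genes, 5 were higher in mTg and 1 in Ex. *B2m*, which encodes β2-microglobulin, the light chain of all class I molecules, had the highest level of all members, at 122, 128, 114, 126 and 121 FPKM in controls, 114, 118, 129, 148 and 150 in Ex, and 151, 174, 208, 192 and 203 in mTg. No mTg library overlapped the other groups, the log2 fold change was 0.60 ± 0.08 in mTg (adjusted p = 7.83e-05) and the Ex minus mTg difference was -0.49 ± 0.10 (adjusted p = 0.00158). *H2-K1*, a classical class I heavy chain, measured 57.2, 55.9, 53.4, 59.1 and 48.4 FPKM in controls, 58.0, 57.3, 55.3, 58.6 and 71.3 in Ex, and 88.7, 70, 75.4, 83.6 and 67.6 in mTg. The mTg libraries exceeded all controls, and Ex replicate 5 stood above the rest of its group (0.48 ± 0.08 in mTg, adjusted p = 0.000436, and 0.13 ± 0.07 in Ex, adjusted p = 0.293).

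*H2-D1*, the other classical heavy chain here, measured 18.9, 18.8, 18.7, 19.7 and 20.4 FPKM in controls, 21.3, 20, 19.5, 19.7 and 20.7 in Ex, and 23.5, 19.3, 25.0, 28.5 and 24 in mTg. Its log2 fold change in mTg was 0.29 ± 0.09 (adjusted p = 0.0134), with replicate 2 within the control range. It was lower in Ex than in mTg (-0.23 ± 0.09, adjusted p = 0.0471), a call that was lost without any of the Ex libraries or without mTg replicate 1, 3, 4 or 5, after rescaling to the same sum and with a replicate block (adjusted p 0.0555 to 0.167). Class I heavy chains are near-identical in long stretches, so reads could be split between them.

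*Tap2*, a subunit of the transporter that carries peptides to class I molecules, rose in both models. It measured 6.62, 6.78, 5.41, 6.07 and 5.40 FPKM in controls, 9.10, 8.49, 8.60, 8.13 and 8.11 in Ex, and 9.57, 6.74, 9.04, 9.09 and 8.56 in mTg. It was the only member for which every Ex library lay above every control, a separation seen for 4.92% of all tested genes, and mTg replicate 2 alone overlapped the controls. The log2 fold change was 0.43 ± 0.07 in Ex (adjusted p = 0.00235) and 0.44 ± 0.09 in mTg (adjusted p = 0.0018), and the interval of the Ex minus mTg difference was -0.19 to 0.17. The call in Ex was kept under all 19 alternatives tried. *Tap1*, the partner subunit, measured 2.19, 2.15, 1.73, 1.68 and 1.91 FPKM in controls, 2.64, 2.26, 1.79, 2.63 and 3.32 in Ex, and 3.49, 2.63, 2.69, 3.86 and 3.36 in mTg. It was clear of the controls in mTg (0.51 ± 0.09, adjusted p = 0.000577) and overlapped them in Ex (0.26 ± 0.10, adjusted p = 0.141). *Tapbp*, the tapasin gene that bridges transporter and class I molecule, measured 11.6 to 15.2 FPKM in controls, 14.8 to 15.9 in Ex and 12 to 18 in mTg, and was not called in either comparison.

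On the log2(FPKM + 1) scale, *H2-Eb1*, *H2-Ab1* and *H2-Aa* had the highest fold changes of the members in mTg. As ratios of mean FPKM, *Parp14* (2.02) and *Rsad2* (1.94) lay above *H2-Ab1* (1.89) and *H2-Eb1* (1.88), and *H2-Aa* was at 1.75. Among the members, the 4 class II genes had the largest differences between Ex and mTg. All 4 were higher in mTg than in controls and higher in mTg than in Ex. *H2-Aa*, the α chain of the I-A molecule, measured 24.1, 29.2, 30.7, 26.3 and 31.0 FPKM in controls, 22, 24.2, 26.0, 25.0 and 29.0 in Ex, and 51.1, 39.3, 53.6, 62.1 and 41.7 in mTg. Its mTg libraries lay above every other library, at 1.75 times the control mean, with a log2 fold change of 0.78 ± 0.12 (adjusted p = 0.000133). *H2-Ab1*, the β chain of the same molecule, measured 14.8, 15.2, 14.9, 15.1 and 19.6 FPKM in controls, 10.8, 12.6, 16, 17.2 and 17.2 in Ex, and 35.0, 20.8, 36.2, 34.7 and 23.3 in mTg. It was again higher in every mTg library (0.85 ± 0.15, adjusted p = 0.000434), but mTg replicate 2 exceeded control replicate 5 only slightly.

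*H2-Eb1*, the β chain of the I-E molecule, measured 11.8, 12, 13.2, 12.5 and 15.6 FPKM in controls, 10.5, 10.2, 12, 11.9 and 13.2 in Ex, and 25.3, 19.2, 30.2, 27.5 and 20.3 in mTg, without overlap between mTg and the rest (0.85 ± 0.12, adjusted p = 7.04e-05). *Cd74*, the invariant chain that escorts class II molecules to the endosome, measured 38.2, 49.5, 46.1, 41.5 and 48.8 FPKM in controls, 31.8, 35.8, 39.4, 37.4 and 39.6 in Ex, and 76.7, 48.0, 82.1, 85.5 and 64.3 in mTg. In mTg only replicate 2 lay within the control range (0.64 ± 0.14, adjusted p = 0.00213). In Ex 3 of the 5 libraries were below the lowest control, and *Cd74* was called lower (-0.27 ± 0.08, adjusted p = 0.0497). That call was at the edge of the threshold. It was lost under 14 of 19 alternatives (adjusted p 0.0502 to 0.211), which include a pseudocount of 0.1, no filter on low values, every other scaling, limma voom, and leaving out control replicate 2, 3, 4 or 5 or Ex replicate 1, 2, 3 or 4.

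The other 3 class II genes also had negative values in Ex, between -0.16 and -0.12, that did not pass the test. The Ex minus mTg differences were -0.93 ± 0.11 for *H2-Aa*, -0.96 ± 0.17 for *H2-Ab1*, -1.01 ± 0.12 for *H2-Eb1* and -0.91 ± 0.13 for *Cd74*, with adjusted p-values from 1.13e-05 to 0.000374, and each of the 4 separated the groups without overlap. Between Ex and mTg, 9 members showed such a separation with Ex below, against 14.9% of all tested genes, and class II held 4 of them. *Ciita*, the transactivator of class II genes, was too low to be tested, at 0.0969 to 0.262 FPKM in controls, 0.0387 to 0.209 in Ex and 0.221 to 0.391 in mTg, on 4 to 34 reads per library. *H2-DMa* and *H2-DMb1*, which load peptides on class II molecules and are no members, were higher in mTg (0.48 ± 0.09 and 0.33 ± 0.11). In mTg replicates 1 to 5 the class II sums were 188, 127, 202, 210 and 150 FPKM, and the macrophage marker sums were 119, 116, 195, 183 and 134 FPKM. Replicates 3 and 4 were highest and replicate 2 lowest in both sums. Replicate 1 did not share this order, with a class II sum of 188 but a macrophage sum of 119, close to the 116 of replicate 2. The endothelial marker sums, at 269, 263, 335, 343 and 351 FPKM, were also lowest in replicate 2. The part of macrophages or endothelium in the class II levels was not tested.

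**Figure D4:**
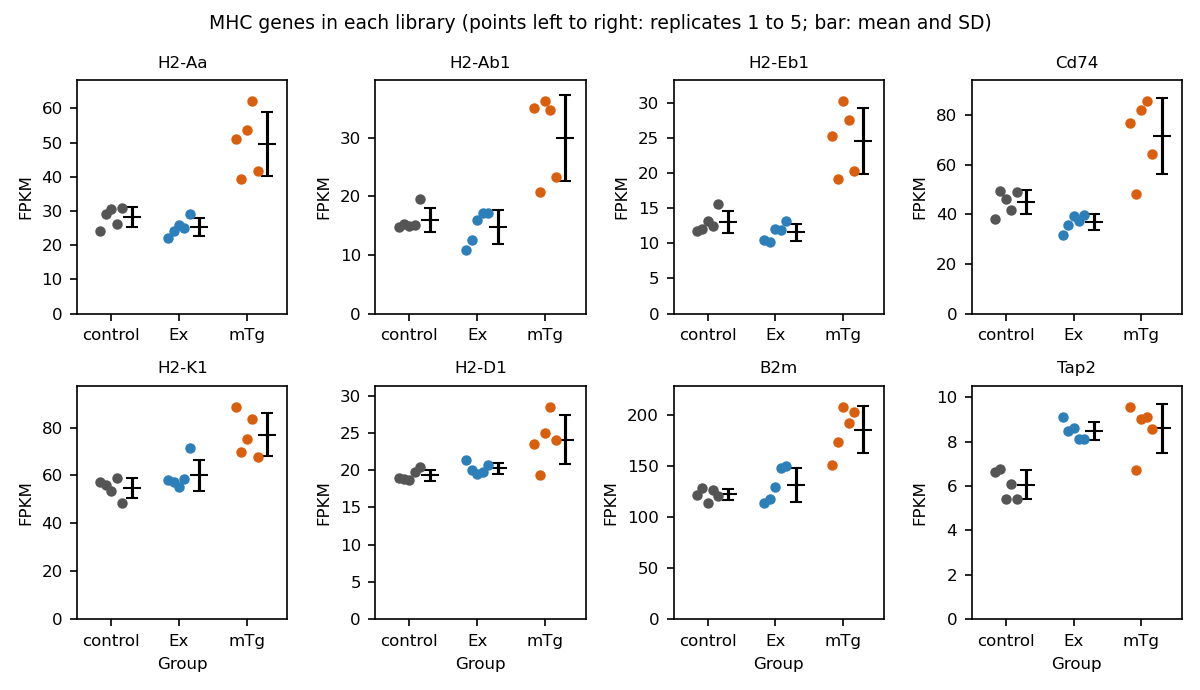
FPKM of the 4 class II genes (top) and of 4 class I genes (bottom) in each library, with points for libraries and a bar for the mean and SD of 5 libraries per group. Class II genes were higher in mTg than in the other groups, with replicates 2 and 5 lowest, and *Tap2* is the gene with all Ex points above the controls.

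The rest of the pathway was read from 4 further gene lists. Of 17 tested receptors, kinases and STAT or IRF factors with their regulators, 1 was higher and 6 were lower in mTg, a share close to the 45.4% of all genes called in either direction. *Ifngr2*, a chain of the interferon-γ receptor, measured 33.0 to 42.0 FPKM in controls, 27.7 to 33.2 in Ex and 19.1 to 28.3 in mTg. It was lower in mTg (-0.76 ± 0.10, adjusted p = 4.49e-05) and lower in Ex (-0.32 ± 0.07, adjusted p = 0.0141). The receptor-bound kinase genes *Jak1* (-0.44), *Jak2* (-0.43) and *Tyk2* (-0.30) were lower in mTg, as were *Irf3* (-0.26) and *Irf2bp1* (-0.20), of which *Irf3* and *Irf2bp1* were named after their values were seen. *Ifnar2*, a chain of the type I receptor, was higher (0.36 ± 0.10).

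Nucleic acid sensors and adaptors included the largest fold change of the 4 lists in mTg on the log2(FPKM + 1) scale. As ratios of mean FPKM, *Mavs* (2.23) was below weakly expressed genes such as *Dhx58* (2.59), *Ifi44* (2.63) and *Cxcl9* (2.77). *Mavs*, the mitochondrial outer membrane adaptor to which RIG-I and MDA5 signal, measured 20.1, 18.7, 20.2, 18.6 and 21.1 FPKM in controls, 23.3, 21.5, 21.4, 22.4 and 21.9 in Ex, and 38.7, 44.9, 43.0, 45.3 and 48.6 in mTg. Every mTg library was above all others, and Ex lay slightly above the controls without overlap (1.12 ± 0.07 in mTg, adjusted p = 4.93e-08, and 0.16 ± 0.05 in Ex, adjusted p = 0.0618). Of 14 tested genes in this list, 8 were higher in mTg and 1 lower. *Dhx58* (0.64), which encodes LGP2, the endosomal RNA receptor *Tlr3* (0.63), *Tmem173* (0.54), which encodes STING, and the adaptor *Myd88* (0.36) rose. *Traf3* was lower in mTg (-0.20) and higher in Ex (0.31).

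**Figure D5:**
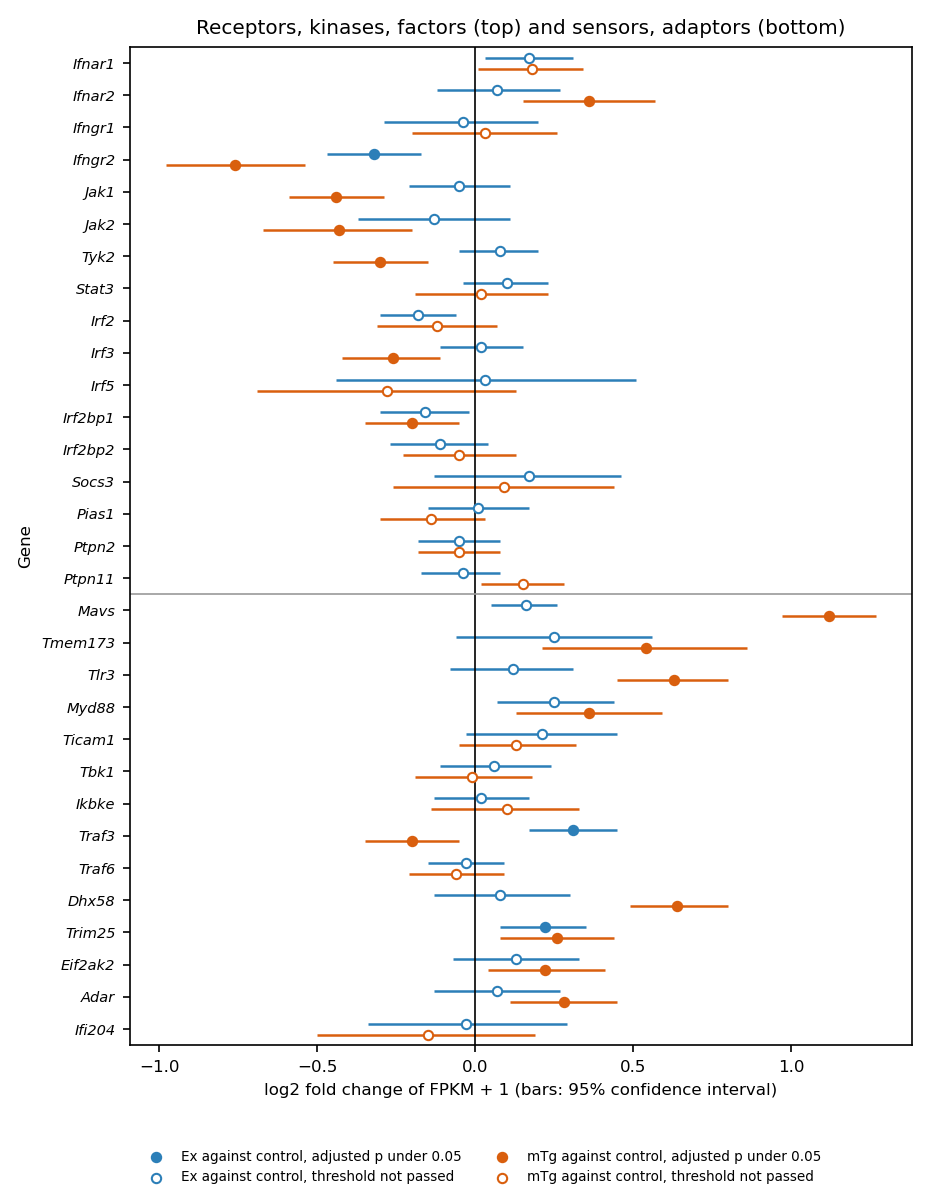
Log2 fold changes of FPKM + 1 for interferon receptors, kinases and factors (upper block) and for nucleic acid sensors and adaptors (lower block) in Ex (blue) and mTg (orange) against controls, with 95% confidence intervals and filled points for an adjusted p under 0.05. *Mavs* stands farthest to the right at 1.12 in mTg, and *Ifngr2* farthest to the left at -0.76.

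Of 37 tested interferon-induced genes outside the members, 23 were higher and 2 lower in mTg, and 4 were higher and 2 lower in Ex. On the log2(FPKM + 1) scale the largest increase in mTg was in *Psme1* (0.94 ± 0.06), a subunit of the proteasome activator PA28. Next were the guanylate-binding protein genes *Gbp9* (0.72), *Gbp4* (0.69) and *Gbp5* (0.68), and the chemokine gene *Cxcl9* (0.66). As ratios of mean FPKM, *Cxcl9* (2.77) and *Ifi44* (2.63) stood above *Psme1* (1.94). *Psme2*, which encodes another PA28 subunit, did not pass the test in mTg (-0.05 ± 0.11, adjusted p = 0.731). *Ifit3b* and *Gbp6* (-0.28) were lower in mTg than in controls. In Ex *Parp10* (0.53 ± 0.07), *Oas2* (0.33), *Uba7* (0.33) and *Ifi27* (0.32) were higher, and *Ifit3b* (-0.39) and *Ifitm2* (-0.27) lower. Of 25 tested genes on the list for antigen processing and MHC, 15 were higher and 2 lower in mTg. Those 15 include *Calr*, *Canx*, *Pdia3*, *Nfyc* and *H2-Ke6*, which are not specific to antigen presentation. *H2-Q4*, a nonclassical class I gene (0.73), *Ctss*, the cathepsin that trims the invariant chain (0.72), the immunoproteasome genes *Psmb10* (0.72) and *Psmb8* (0.57), and *H2-T24* (0.57) rose, whereas *Rfx5*, a factor that binds MHC promoters (-0.53), and *Ctsl* (-0.35) fell. In Ex *Lgmn* (0.45) and *Psmb8* (0.30) were higher and *Nfyb* (-0.26), a subunit of the Y box factor NF-Y, was lower. These lists and the members were drawn up with earlier results of these data known, so their counts are descriptions.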

How the data were processed

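Polyadenylated RNA from quadriceps was sequenced by the authors as stranded single-end libraries and aligned to mm10 with STAR, and DESeq2 1.1.0 was used for differential expression, per the submitters' processing notes. Neither the annotation nor the counting tool is named in the sources, and they do not say how reads matching several genes were handled. The deposited values used were FPKM per gene and library, as the authors scaled them. The scale of each library, read from the spacing of its values, did not simply follow the reads on the 12529 genes. Ex replicate 4 had fewer such reads than control replicate 1 (15871617 against 16156087) but a larger scale (1.0614 against 1.0000). The authors' other deposited tables hold fold changes and p-values of their own comparisons and were not used. Sample columns without a mapped sample numbered 0.

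FPKM were tested on the log2(FPKM + 1) scale with limma 3.58.1 in R 4.3.3 (moderated linear model with a mean-variance trend, two-sided), for genes whose mean over the 15 libraries reached 0.5 FPKM, with Benjamini-Hochberg adjustment over all of them and each comparison fitted on its own 10 libraries. Intervals are 95% confidence intervals. Whole reads were recovered from FPKM steps for 100% of values (tolerance 0.01 reads, 12529 genes) and used for limma voom, which called 623 genes higher and 574 lower in Ex, 2696 and 2606 in mTg, and 2348 and 2472 in Ex against mTg. They give depth, and counting error limits members with few reads. All pairs of libraries within a group differed by more than sampling noise (chi-square per gene 4.56 to 27). The fitting code was tested on simulated data.

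Alternatives were pseudocounts of 0.1 and 0.5, no filter and a filter of 1 FPKM, rescaling to the same sum (TPM), median-of-ratios scaling, all 15 libraries in 1 fit, limma voom, a replicate block, and leaving out each library. Median-of-ratios factors of the deposited FPKM were 0.9932 to 1.0086, so that this scaling could change little. The library sizes in limma voom also came from median-of-ratios factors, so only TPM rescaling probed a clearly different scale. Members with a call in Ex or mTg against controls are given with values for every library (at most 6 per role and comparison, by smallest p), plus the most abundant member of each role. From other lists, at most 5 called genes with the largest change are named, and further names were chosen after their values were seen. An item withheld for evaluation was taken out of the lists and is not reported here. The members and lists were chosen with earlier results of these data known. Promoter sequences and gene positions are from RefSeq on GRCm38.p6, and 30 of 38 members matched a promoter window.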

Additional observations from a re-analysis of the deposited data

Results flagged for a closer look

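In 114 sets of 5 libraries (38 members in 3 groups), 8 had an extreme library whose gap to its nearest neighbor was large for the range of the group, where chance flags about 1 in 20 such sets. In controls these were *Ifi35* in replicate 5 (16.4 FPKM against 9.81 to 11.5 in the others), *H2-Ab1* in replicate 5 (19.6 against 14.8 to 15.2), *Igtp* in replicate 1 (9.77 against 7.48 to 7.85) and *Gbp7* in replicate 1 (6.00 against 3.53 to 4.17). In Ex, *H2-K1* in replicate 5 was high (71.3 against 55.3 to 58.6). In mTg, *Irf1* in replicate 2 (4.34 against 5.36 to 5.69) and *Nlrc5* in replicate 3 (0.488 against 0.751 to 0.844) were low, and *Ddx58* in replicate 5 was high (2.98 against 2.23 to 2.45). Without control replicate 5, *Ifi35* was called higher in Ex (adjusted p = 0.0152 in limma).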

How the results depend on the processing

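No member changed direction under an alternative that called it. In mTg, 26 of 29 called members kept their call under every alternative tried, the exceptions being *Stat2*, *Nlrc5* and *Xaf1*, and the 8 others stayed uncalled throughout. Leaving out single libraries gave 26 to 28 members higher and 0 lower in mTg, 1 to 3 higher and 0 to 1 lower in Ex, and 14 to 21 lower and 0 to 1 higher in Ex against mTg. The 1 member lower in Ex, *Cd74*, became 0 with a pseudocount of 0.1, without the filter, after TPM rescaling, with median-of-ratios scaling, with all 15 libraries in 1 fit and with limma voom. *Usp18* was called higher in Ex than in mTg (1 member) after TPM rescaling, with all 15 libraries in 1 fit and without Ex replicate 4. Of members not called in Ex, *Irf7* was called without control replicate 1 or 4 or Ex replicate 5, after TPM rescaling and with the replicate block (adjusted p from 0.0259 to 0.0481), and *Tap1* without Ex replicate 3 (0.0498). In Ex against mTg, *Rtp4* lost its call without Ex replicate 2, 3 or 5 or mTg replicate 3 and after TPM rescaling (adjusted p 0.051 to 0.0617), and *Xaf1* without Ex replicate 2, 4 or 5 or mTg replicate 3, 4 or 5 and after TPM rescaling (0.0658 to 0.101). Over all genes, TPM rescaling turned 629 higher and 586 lower in Ex (51.8% higher) into 1224 and 208 (85.5%), and 2414 and 2413 in Ex against mTg (50%) into 3042 and 1902 (61.5%), moving the all-gene median in Ex to 0.069. Leaving out single libraries gave 418 to 699 genes higher and 326 to 777 lower in Ex (418 without control replicate 4, 326 without Ex replicate 3), 2335 to 2632 and 2362 to 2726 in mTg, and 2097 to 2433 and 2157 to 2478 in Ex against mTg. The cause of these shifts was not tested. Replicate numbers are shared across groups, but correlations of same-numbered libraries ran from -0.216 to 0.189, so the libraries share only a number. With the replicate block, 28 members were higher and 0 lower in mTg (*Xaf1* was lost), 3 were higher and 1 lower in Ex, and 19 were lower in Ex than in mTg. Depth limits *Oas1a* (6 to 26 reads per library) and *Isg15* (19 to 49) most.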
